A study of Mus musculus with 8 samples.

Results

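The 80 genes described here encode the proteins of the cytosolic ribosome, together with a few close paralogs, in a mouse leukemia line with and without Cop1. They were chosen by symbol alone: Rpl or Rps followed by a number and at most a short suffix, Rplp0 to Rplp2, and Rpsa. Of the 13378 genes in the table they are 48 genes of the large subunit and 32 of the small subunit, and they hold 427 of the 134051 exon junctions.

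The line, FT1CL, is an acute myeloid leukemia made from bone marrow of Cop1 cKO/Rosa26-Cre-ERT2 mice aged 8 weeks, taken 5 days after 5-fluorouracil at 150 mg/kg, and transduced with a pMYs retrovirus carrying Trib1. It grew in IMDM with 10% serum and 5 ng/mL interleukin-3. The 4 Cop1WT libraries are from untreated cells labelled Cop1 +/+, and the 4 Cop1KO libraries from cells labelled Cop1 ko/ko that had received 4-hydroxytamoxifen, which switches on the Cre-ERT2 recombinase. All 8 libraries therefore share the Cre allele and the Trib1 virus, and the effect of losing Cop1 cannot be told apart from that of the drug. Nothing in the labels ties the libraries to separate cultures, and a p-value here reflects how far these libraries scatter, possibly for technical reasons only. COP1 is a ubiquitin ligase that works with TRIB1 against the myeloid transcription factor C/EBPα.

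A ribosome needs each of its proteins in a fixed ratio, and the genes for them are among the most strongly transcribed in growing cells. Their mRNAs usually begin with an unbroken pyrimidine stretch, the terminal oligopyrimidine tract, through which growth signals and the RNA-binding protein LARP1 set how much of the mRNA is translated. Many of these genes also host small nucleolar RNAs in their introns, and the genome carries numerous processed copies of them, so reads can be shared with near-identical sequences and every value here is uncertain to that extent.

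Promoter sequences from RefSeq (GRCm38.p6) matched 64 of the 80 genes by symbol. A run of at least 7 pyrimidines (C or T on the sense strand) within 20 bases of a listed start was present in 39 of the 64 (60.9%), against 27.5% of 27025 genes with a promoter. The motif CGGAAG, searched on both strands over 300 bases, was present in 42 of the 64 (65.6%), against 18.8% of all. These are matches of letters, not shown sites. The stretches below are shown because they belong to 4 of the members with a called gene or junction (Rpl22l1, Rps9, Rps19, Rpl12) and to a paralog without such a run (Rpl7l1). Each runs from 25 bases before the listed start to 20 bases after it, 5′ to 3′ on the gene's strand, with the pyrimidine run in capitals. For Rps19 the start with a run is shown, and its other 2 listed starts had none.
Rpl22l1 (chr3:28805483-28805527, plus strand): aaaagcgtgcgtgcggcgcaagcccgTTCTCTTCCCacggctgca
Rps9 (chr7:3704016-3704060, plus strand): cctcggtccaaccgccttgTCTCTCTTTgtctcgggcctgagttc
Rps19 (chr7:24884888-24884932, plus strand): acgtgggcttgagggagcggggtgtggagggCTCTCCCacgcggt
Rpl12 (chr2:32961687-32961731, plus strand): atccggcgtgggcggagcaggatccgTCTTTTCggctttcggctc
Rpl7l1 (chr17:46782637-46782681, minus strand): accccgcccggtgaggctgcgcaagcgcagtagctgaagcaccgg
Both Rpl22l1, which fell, and Rps9, which rose by its minor junctions, carry a run. Rpl22, described below, had none at its listed starts. Whether a run goes with direction was not tested.

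The table gives reads across exon junctions, which are named by the pair of numbered exon blocks they join (E3.2-E3.8 joins block 3.2 to block 3.8). Levels are in RPM, reads per 1000000 junction reads of the library. The libraries held 17333302 to 22469109 junction reads. Cop1 itself had 159, 162, 166 and 162 RPM in Cop1WT libraries 1 to 4 and 81.2, 70.3, 76.5 and 66.7 RPM in Cop1KO libraries 1 to 4. Its log2 fold change was -1.13 (SE 0.07, limma adjusted p = 2.16e-04), which goes with the labels. The first principal component, with 53.3% of the variance, set Cop1WT at -56.9 to -18.8, Cop1KO libraries 1 to 3 at 40.5 to 49.1, and Cop1KO library 4 at -2.06. Of the 8 neutrophil markers, 7 rose, and their summed level was 11.1 to 62.1 RPM in Cop1WT and 409 to 10506 RPM in Cop1KO, lowest in library 4. Leukocyte markers summed to 1812 to 2104 RPM and 2381 to 2941 RPM (4 of 5 rose), and stroma markers to 150 to 206 RPM and 22.9 to 66.2 RPM (1 of 1 tested fell). The sums of the monocyte list (282 to 514 and 413 to 1340 RPM, 1 of 5 rose), the erythroid list (377 to 600 and 74.5 to 555 RPM, 2 of 4 tested fell), the mast cell list (11814 to 13715 and 11538 to 16726 RPM, 3 of 5 rose) and the progenitor list (1058 to 1907 and 993 to 1543 RPM, 1 of 5 fell) overlapped between groups. For the monocyte and erythroid lists, only Cop1KO library 4 (413 and 555 RPM) lay within the Cop1WT range. Cop1KO libraries 1 to 3 had 1236 to 1340 RPM and 74.5 to 159 RPM. The T-cell and B-cell lists stayed at or under 8.15 RPM, with 0 calls in limma. The part of the neutrophil, leukocyte and stroma markers, whose sums separated the groups, in the results on ribosomal protein genes was not tested. Nor was that of the monocyte and erythroid markers. In bulk RNA, fewer cells of a type and less RNA per cell cannot be told apart.

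Few ribosomal protein genes differed between the groups, while 24 of 48 other genes of translation fell (17 under another scaling, described below). The members took 9.0, 8.98, 8.15 and 8.66% of junction reads in the Cop1WT libraries and 8.86, 8.17, 8.70 and 8.06% in the Cop1KO libraries. Of 79 members tested, 2 rose (Rps9 and Rps19) and 2 fell (Rpl22l1 and Rpl3) by limma on log2(RPM + 1), at an adjusted p under 0.05 over all 10977 genes tested. In the same test 26.6% of all genes passed, of which 1131 (10.3% of those tested) rose and 1784 (16.3%) fell. Wild-type and knockout libraries were fully separated for 13 members (16.5%), against 28.7% of all genes. Leaving out both libraries numbered 4 gave 3 rises and 4 falls, where 32.5% of all genes passed. Without Cop1WT library 2, Cop1KO library 2 or Cop1KO library 3 there was 1 rise. Without Cop1WT library 2 or Cop1KO library 3 there was 1 fall, and without Cop1WT library 3 or Cop1KO library 4 there were 5 falls. The shares of all genes that passed without a single library are not given here.

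How well a member could be read decided which value it has. In the sums per gene, any junction that dropped out in a library was left out of all 8, as described further on. After that, 64 members kept at least 1 junction with a mean of 25 RPM and are called well read. Another 9 had only junctions below that level. A further 6 hold a junction that falls to a few reads in some library without meeting the rule for a dropped value. Rps6, whose 3 main junctions all dropped somewhere, was not tested. Among the 9, Rpl9, Rpl21, Rpl36a and Rpl3l had no dropped junction. Their best junctions reached only 47, 97, 36 and 45 reads in any library. The limit of 25 RPM was chosen after the values were seen.

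The well-read members lay in a narrow band. Their log2 fold changes (knockout minus wild type) ran from -0.40 to 0.14 with a median of -0.05, and 61 of 64 (95.3%) were within 0.2 of zero. Over all 79 members tested, without the limit on level, the range was -2.19 to 1.83 and 66 (83.5%) were within 0.2, against 36.9% of all genes tested. These shares were not matched for level, and the second counts all genes from 1 RPM up. The 25 genes of the small subunit ran from -0.17 to 0.09; 0 passed in limma (2 had an unadjusted p under 0.05), 0 in edgeR and 1, Rps24, in DESeq2, where it was higher. The 39 genes of the large subunit ran from -0.40 to 0.14, and 2 passed, both lower. Medians of the subunits were -0.06 and -0.05, beside -0.07 for all genes. Under TMM scaling, which shifts each library by its typical gene, the median of all genes was 0.00 and that of the members was 0.02, and 5 members were higher and 2 lower, where 24.5% of all genes passed; over all genes the share of calls that were higher went from 38.8% to 50.9%. The members called in addition under TMM were Rpl37a, Rpl39 and Rpl41, small proteins of the large subunit, at 0.19, 0.19 and 0.22 (limma adjusted p = 0.0434, 0.0280 and 0.0360). The sign of the members' median thus depends on the scaling, and its distance from the median of all genes stayed under 0.1 in both.

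**Figure D1:**
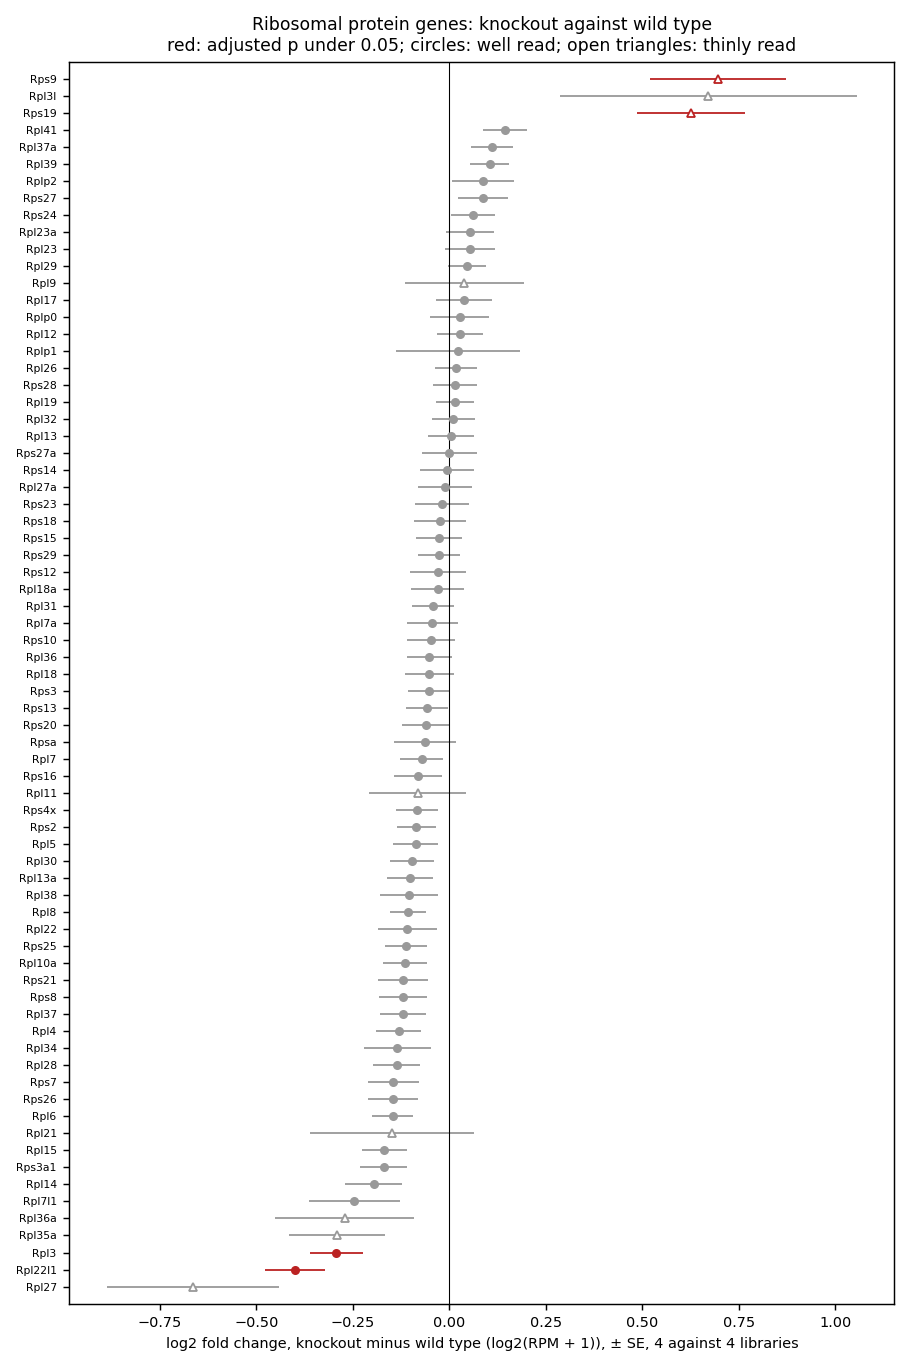
Log2 fold change (knockout minus wild type) with its SE for 72 members, sorted; circles are well-read members, open triangles thinly read ones, red marks an adjusted p under 0.05, and members with an unstable junction are not drawn. Most points lie within 0.2 of zero. The called falls are Rpl3 and Rpl22l1, and the 2 called rises are thinly read members. The lowest point is Rpl27 (-0.67), thinly read and not called.

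Rpl22l1, a paralog that can take the place of RPL22 in the large subunit, fell at all of its junctions. The gene (ENSMUSG00000039221, chromosome 3, 28805436 to 28807424, plus strand, Gencode M21 on mm10) had 218, 231, 184 and 204 RPM in the Cop1WT libraries and 152, 158, 160 and 162 RPM in the Cop1KO libraries. The lowest wild-type library was above the highest knockout library. The log2 fold change was -0.40 (SE 0.08, limma adjusted p = 0.0081), and it passed under every alternative tried, with values from -0.46 to -0.31. Its 3 junctions fell alike, by 0.38, 0.39 and 0.42 on the log2 scale.

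RPL22, an RNA-binding protein of the large subunit, is the partner in that pair, and its gene was looked at after the values were seen. Rpl22 had 52.6, 49.7, 49.8 and 53.2 RPM in Cop1WT and 52.6, 46.7, 45.5 and 45.6 RPM in Cop1KO. The groups overlapped, and the log2 fold change of -0.11 (SE 0.08, limma adjusted p = 0.33) did not pass. This rests almost wholly on the junction E1.5-E2.6 with 781 to 1044 reads, since E2.7-E4.1 was read well only in Cop1KO library 2 (4257 reads, at most 3 elsewhere) and E4.3-E5.2 only in Cop1WT library 4 and Cop1KO libraries 1 and 4 (4888 to 6245 reads, at most 5 elsewhere).

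Rpl3, whose protein sits near the catalytic centre of the large subunit, fell along its whole length. The gene (ENSMUSG00000060036, chromosome 15, 80077791 to 80091868, minus strand) had 3561, 3434, 3208 and 3395 RPM in Cop1WT and 2891, 2520, 2686 and 3024 RPM in Cop1KO. No knockout library reached the lowest wild-type library. The log2 fold change was -0.29 (SE 0.07, limma adjusted p = 0.0166). Of its 9 junctions 8 passed the junction test, at -0.35 to -0.25, and the first, E1.1-E2.1, missed it at -0.27 (limma adjusted p = 0.0519). Without Cop1WT library 2 or Cop1KO library 3 the gene's call ended (adjusted p = 0.0506 and 0.0502), with the fold at -0.29 and -0.28.

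Among the other well-read members, Rpl14 and Rps3a1 had values below zero without passing the gene test. Rpl14, of the large subunit, had a log2 fold change of -0.20 (SE 0.07, limma adjusted p = 0.0832) and Rps3a1, of the small subunit, -0.17 (SE 0.06, adjusted p = 0.0704). One junction of each passed the junction test: Rpl14 E2.1-E3.1 at -0.21 and Rps3a1 E2.1-E3.1 at -0.19. Each of these junction calls ended in 11 of 20 alternatives. Rpl7l1, a paralog of Rpl7 that takes part in ribosome assembly, had 161, 165, 196 and 195 RPM in Cop1WT and 134, 146, 140 and 186 RPM in Cop1KO. Its groups overlapped through Cop1KO library 4, and its log2 fold change of -0.25 (SE 0.12, limma adjusted p = 0.16) passed only without library 4 of the knockout or without both libraries numbered 4 (-0.35 and -0.31, adjusted p = 0.0194 and 0.0343).

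**Figure D2:**
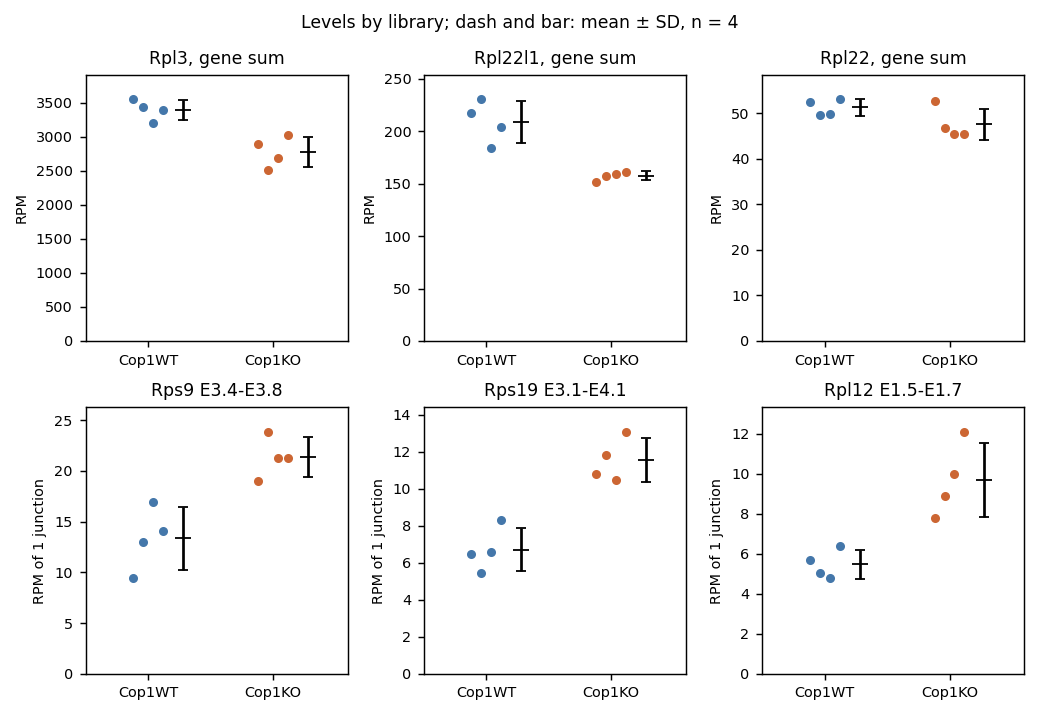
Levels in RPM by library for 3 genes summed over junctions (upper row) and for 3 single minor junctions (lower row), with mean ± SD of 4 libraries. Rpl3 and Rpl22l1 are lower in every knockout library, Rpl22 overlaps, and the minor junctions of Rps9, Rps19 and Rpl12 are higher in every knockout library.

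The 2 rises belong to minor junctions of genes whose main junction could not be used. RPS9 and RPS19 are proteins of the small subunit, and loss of 1 RPS19 allele in humans causes Diamond-Blackfan anemia. In Rps9 (ENSMUSG00000006333, chromosome 7, 3703993 to 3706897, plus strand), E3.2-E3.8 held 14700, 13150, 12554 and 12283 reads in Cop1WT and 1, 3, 3 and 1 reads in Cop1KO. The smaller E3.4-E3.8, which ends at the same block, held 198, 244, 321 and 251 reads in Cop1WT and 389, 414, 413 and 479 in Cop1KO. The groups go opposite ways at these 2 junctions of 1 gene. E3.2-E3.4, which leaves from the same block as the main junction, held 31, 39, 47 and 49 reads and then 63, 74, 79 and 107.

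Summed without the dropped junction, Rps9 had 16.8 ± 4.00 RPM in Cop1WT and 27.5 ± 3.08 RPM in Cop1KO (SD, n = 4), with a log2 fold change of 0.70 (SE 0.18, limma adjusted p = 0.0207). Summed with it, as deposited, it had 705 ± 13.2 RPM and 27.6 ± 3.13 RPM, a log2 fold change of -4.63 (limma adjusted p = 8.24e-08). The direction of Rps9 thus turns on a single junction. In Cop1WT, where both can be read, E3.2-E3.4 made up 0.319 ± 0.0844% of the reads that leave block 3.2 by E3.2-E3.4 or E3.2-E3.8 (SD, n = 4), a small part of the gene's reads. The call of the rise ended without Cop1WT library 2, Cop1KO library 2 or Cop1KO library 3 (adjusted p = 0.0529, 0.0595 and 0.0564).

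Rps19 (ENSMUSG00000040952, chromosome 7, 24884371 to 24889806, plus strand) showed a like layout. E3.1-E5.2 held 9503 reads in Cop1WT library 4 and at most 4 in each of the other 7 libraries. The junctions that pass through block 4.1 between the same ends were higher in knockout: E3.1-E4.1 held 136, 103, 124 and 148 reads in Cop1WT and 221, 205, 203 and 294 in Cop1KO, and E4.1-E5.2 held 140, 127, 120 and 141 reads and 191, 205, 217 and 310. Their log2 fold changes were 0.75 and 0.69 (SE 0.14 and 0.13, limma adjusted p = 0.0031 and 0.0041), and both passed in each of the 19 alternatives that tested them. In Cop1WT library 4, the only library with the main junction, E3.1-E4.1 made up 1.53% of the reads leaving block 3.1 by either route (Wilson 95% interval 1.31 to 1.80%, counting error only). The gene's sum without the dropped junction was 22.1 ± 3.46 RPM in Cop1WT and 34.6 ± 4.63 RPM in Cop1KO (SD, n = 4), with a log2 fold change of 0.63 (SE 0.14, limma adjusted p = 0.0132). With that junction it was -0.46 and did not pass.

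Rpl12, of the large subunit stalk base, held its level while 1 minor junction rose. The gene (ENSMUSG00000038900, chromosome 2, 32961559 to 32965345, plus strand) had 1733 ± 70.04 RPM in Cop1WT and 1766 ± 96.6 RPM in Cop1KO (SD, n = 4), with a log2 fold change of 0.03 (SE 0.06, limma adjusted p = 0.78). E1.5-E1.7 held 119, 95, 90 and 114 reads in Cop1WT and 160, 154, 193 and 272 in Cop1KO, without overlap. Its share of the reads that enter block 1.7 by E1.4-E1.7 or E1.5-E1.7 was 0.756, 0.671, 0.676 and 0.857% in Cop1WT and 0.981, 1.24, 1.25 and 1.68% in Cop1KO. It was the only one of 214 member junctions called by limma's diffSplice, which asks whether a junction changed otherwise than the rest of its gene (log2 difference 0.74, adjusted p = 0.0015), where 11 of 36273 junctions (0.0303%) passed in all. At a minimum of 20 RPM it was too thinly read to be tested.

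At the level of junctions, 4 of 232 tested were higher and 15 lower, in 9 genes, while 33.0% of 37262 junctions passed in all (3956 higher, 8348 lower). The 4 that rose are those described in Rps9, Rps19 and Rpl12. Of the 15 that fell, 8 are in Rpl3 and 3 in Rpl22l1. With the replicate number as a block 24 were lower, and under TMM scaling 9 were higher and 7 lower. Without Cop1WT library 2 there were 8 falls, without Cop1WT library 3 there were 24, and without Cop1KO library 4 there were 31. The shares of all junctions that passed in these fits are not given, so these counts cannot be set against a background. Over genes, 36.4% passed with the block and 24.5% under TMM scaling, against 26.6% in the main fit. Rpl15, a large-subunit protein, had the largest fall among the called junctions: E2.5-E3.2 held 328, 364, 354 and 369 reads in Cop1WT and 272, 202, 272 and 306 in Cop1KO, a log2 fold change of -0.48 (SE 0.11, limma adjusted p = 0.0094). The more used E2.3-E3.2, which enters the same block, held 1935 to 2743 reads and did not pass (-0.12, adjusted p = 0.24). E2.5-E3.2 took 12.4 ± 1.43% of the reads entering block 3.2 from blocks 2.3 to 2.5 in Cop1WT and 9.83 ± 0.567% in Cop1KO (SD, n = 4), and the groups did not overlap, though diffSplice did not call it (adjusted p = 0.9999).

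A share of the main junctions of ribosomal protein genes held almost no reads in some libraries. A value counted as dropped if no more than 6 reads were present where 100 or more were predicted from the rest of the gene. This touched 42 of the 274 member junctions that could be judged, in 26 genes, and 189 of their 2192 values (8.62%). Over all genes it touched 15.7% of such junctions, close to the 15.3% among members, and 5.58% of values. A member junction with a dropped value had it in 1 to 7 libraries, most often 5 (14 junctions), and in 37 of the 42 it occurred in both groups. The dropped values were 1 to 6 reads and never 0, while the same junctions reached a median of 7997.5 reads in their best library.

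**Figure D3:**
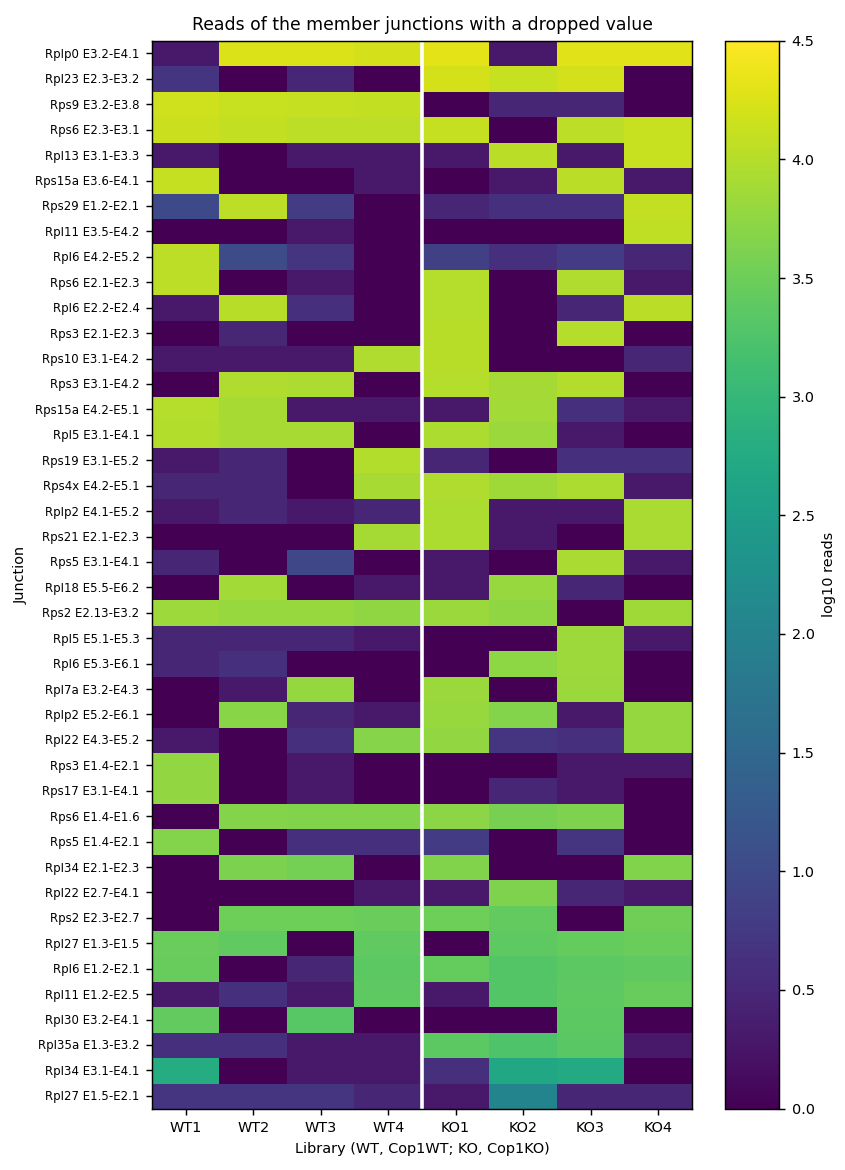
Reads (log10 colour scale) of the 42 member junctions with a dropped value, in the 4 Cop1WT and 4 Cop1KO libraries. Each row switches between well read and a few reads, in a pattern that differs from row to row. Only Rps9 E3.2-E3.8 is high in all of one group and low in all of the other. Over all genes, 46 of 8730 junctions with a dropped value were dropped in all of one group and none of the other.

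Single genes show the pattern. In Rplp0, the acidic stalk protein often used as a reference transcript, E3.2-E4.1 held 2 reads in Cop1WT library 1 and in Cop1KO library 2, and 16540 to 20830 in the other 6. The next junction, E4.2-E5.1, held 13350 to 17103 reads in all 8. In Rpl23, E2.3-E3.2 held 5, 1, 3 and 1 reads in Cop1WT and 16352, 13188, 16542 and 1 in Cop1KO. Rpl13 E3.1-E3.3 was read only in Cop1KO libraries 2 and 4 (10905 and 13412 reads), and Rpl6 E4.2-E5.2 only in Cop1WT library 1 (11486 reads). In Rps15a, E3.6-E4.1 was read in Cop1WT library 1 and Cop1KO library 3 (12747 and 10687 reads). Rps29 E1.2-E2.1 was read in Cop1WT library 2 and Cop1KO library 4 (11083 and 12212 reads), and Rps10 E3.1-E4.2 in Cop1WT library 4 and Cop1KO library 1 (9096 and 10419 reads). Within 1 gene the junctions did not drop together: in Rps3, E2.1-E2.3 was read in Cop1KO libraries 1 and 3, and E3.1-E4.2 in those and in Cop1WT libraries 2 and 3 and Cop1KO library 2. Rpl6 E2.2-E2.4 was read in Cop1WT library 2 and Cop1KO libraries 1 and 4.

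The share of dropped values among the member junctions was 9.49, 9.49, 8.76 and 10.2% in Cop1WT and 6.57, 8.39, 8.03 and 8.03% in Cop1KO. The groups did not overlap, and the difference of -1.73 percentage points gave p = 0.0286 (exact permutation test, two-sided), the smallest p that 4 against 4 can give. The test took the libraries as unpaired, though same-numbered libraries deviated together in gene levels. Over all genes the shares were 5.59 ± 0.511% and 5.57 ± 0.634% (SD, n = 4, exact permutation p = 1.0). Summed as deposited, 2 of 80 members rose and 3 fell (20.6% of all genes passed there), and 3 of those 5 calls rest on a dropped junction: Rps9, Rpl23 (1.398, limma adjusted p = 0.0395) and Rpl35a (1.4996, adjusted p = 0.0425). Without the dropped junctions Rpl23 had 0.05 (adjusted p = 0.59) and Rpl35a -0.29 (adjusted p = 0.12). Of the 25 tested members with a dropped junction, 12 changed sign between these sums.

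Levels per junction ranged from under 1 RPM to 894 RPM, and no call was made among those at the top. Rplp1, an acidic stalk protein, averaged 894 RPM per junction, Rps12 598 and Rpsa, a small-subunit protein also known as the laminin receptor, 573. Rplp1 had 1871, 1899, 1762 and 1513 RPM in Cop1WT and 1963, 2038, 2001 and 1259 RPM in Cop1KO, and its log2 fold change was 0.02 (SE 0.16, limma adjusted p = 0.94). Its lowest value in each group is library 4. Rps12 (-0.03, SE 0.07) and Rpsa (-0.06, SE 0.08) did not pass either (adjusted p = 0.80 and 0.60). At the bottom, Rpl3l, Rpl9 and Rpl27 averaged 0.383, 0.551 and 0.588 RPM per junction. Rpl27 had lost its main junctions to dropped values. It had 3.14 ± 1.03 RPM in Cop1WT and 1.56 ± 0.270 RPM in Cop1KO (SD, n = 4), with a log2 fold change of -0.67 that missed the threshold (SE 0.22, adjusted p = 0.0567) and passed with the replicate number as a block (adjusted p = 0.0357). Rpl9 had 3.78 ± 0.227 and 3.94 ± 0.662 RPM (log2 fold change 0.04, adjusted p = 0.88). None of its 7 junctions was dropped, and they held at most 47 reads. Whether so low a value reflects its expression was not tested.

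Rplp0, Rplp1, Rps12 and Rpsa were lower in both libraries numbered 4 than in any of the other 6. These are 4 of the 64 well-read members (6.25%), with none higher in both; over all genes tested, 16.2% lay outside the others on the same side in both. Cop1KO library 4 had 70.4% of the mean Rplp1 level, and Cop1WT library 4 had 84.6%. The other members of this set were at 86.1 to 97.6% in those libraries.

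**Figure D4:**
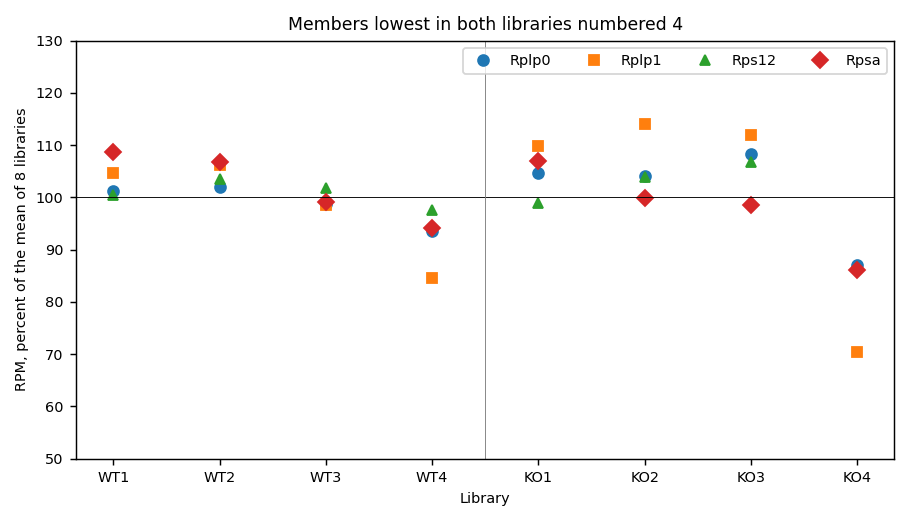
Level of 4 members in each library as a percent of the member's mean over 8 libraries. Every point of library 4 in either group is below 100, and Rplp1 is the lowest in both.

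Of the remaining paralogs, Rpl3l was thinly read and Rps27l held an unstable junction. Rpl3l, the muscle form of Rpl3, had 1.33, 1.01, 1.16 and 0.898 RPM in Cop1WT and 2.29, 4.73, 3.41 and 0.490 RPM in Cop1KO. It was higher in Cop1KO libraries 1 to 3 and lowest in library 4, and the log2 fold change of 0.67 (SE 0.39, limma adjusted p = 0.23) did not pass. Without Cop1KO library 4 it was 1.06 (adjusted p = 0.0103). These reads lie at the junctions E10.1-E11.1 (1 to 32 reads) and E11.2-E12.1 (2 to 45 reads). Rps27l, a p53-responsive paralog of Rps27, had 3.05, 45.2, 46.7 and 53.7 RPM in Cop1WT and 37.1, 47.8, 3.67 and 57.9 RPM in Cop1KO. The 2 low values come from E1.3-E3.1, which held 1 read in those libraries and 708 to 1178 in the others, and no direction can be read from the sum (log2 fold change 0.02, SE 1.05, limma adjusted p = 0.99). Rps4l, Rpl39l and Rpl10l were not analysed here.

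The other genes of cytosolic translation were taken from a list of initiation, elongation and release factors, assembly factors and related genes. Of 48 tested, 24 fell and 1 rose, against 16.3% and 10.3% of all genes, with a median log2 fold change of -0.29. Without Cop1KO library 3, 14 fell. Under TMM scaling 17 fell and 3 rose, with a median of -0.21, where 24.5% of all genes passed. As deposited, 17 fell and 0 rose, where 20.6% of all genes passed. Eif3a, a scaffold of initiation factor 3, had 1116, 1148, 1093 and 1102 RPM in Cop1WT and 903, 832, 792 and 900 RPM in Cop1KO, a log2 fold change of -0.38 (SE 0.06, limma adjusted p = 0.0038). Eif2s3x, a subunit of the factor that brings the initiator tRNA, had -0.44 (SE 0.07, adjusted p = 0.0044). Larp1, which binds the pyrimidine tract of ribosomal protein mRNAs, had 254 ± 13.1 RPM in Cop1WT and 185 ± 17.6 RPM in Cop1KO (SD, n = 4), with a log2 difference of -0.45 (SE 0.08, adjusted p = 0.0061). All 12 genes of initiation factor 3 on the list had a negative value, and 4 of them passed. Under TMM scaling Eif3f (0.07) and Eif3h (0.02) were above zero and the others below it. Of the list's chaperones of single ribosomal proteins, named after their values were seen, Grwd1, which serves RPL3, was at -0.95 and Heatr3, which serves RPL5, at -0.88 (limma adjusted p = 0.0087 and 0.0071). Tsr2, which serves RPS26, did not pass (-0.33, SE 0.30, limma adjusted p = 0.46).

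Fau, which encodes a ribosomal protein of the small subunit fused to a ubiquitin-like protein, falls outside the symbol rule. It was the 1 rise in the list: it had 152, 155, 157 and 147 RPM in Cop1WT and 199, 178, 190 and 161 RPM in Cop1KO (log2 fold change 0.25, SE 0.08, limma adjusted p = 0.0425). The call ended without any 1 of 7 libraries, all but Cop1KO library 4, and over junctions of neighbouring blocks only the value was -0.14 (adjusted p = 0.60).

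The genes of the mitochondrial ribosome, a separate machine that makes the proteins encoded by mitochondrial DNA, had a median log2 fold change of -0.23, beside -0.07 for all genes. Of 75 tested, 0 rose and 10 fell in limma (13.3%, against 16.3% of all genes lower), and 29 had an unadjusted p under 0.05, as did 4368 of all 10977 genes. The share called was thus no higher than the background. Mrps7 had 31.3 ± 1.32 RPM in Cop1WT and 21.7 ± 2.28 RPM in Cop1KO (SD, n = 4; log2 fold change -0.51, SE 0.10, limma adjusted p = 0.0078). Mrpl12, which also binds the mitochondrial RNA polymerase, had -0.54 (SE 0.11, adjusted p = 0.0089) and Mrpl49 -0.47 (SE 0.12, adjusted p = 0.0199). The number of falls moved with the processing: 4 under TMM scaling and 3 by edgeR, where 1 gene rose, and 6 by DESeq2, also with 1 rise. With the replicate number as a block 14 fell and 1 rose, where 36.4% of all genes passed. Without Cop1WT library 2, 3 or 4 there were 4, 4 and 3 falls, and without Cop1KO library 1, 2 or 3 there were 4, 5 and 2. Whether the cytosolic set differs from either list was not tested.

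**Figure D5:**
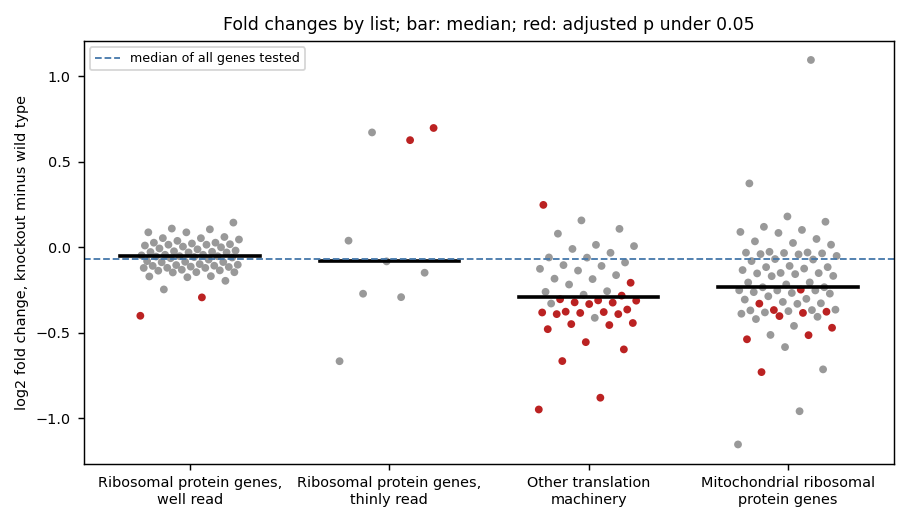
Log2 fold change (knockout minus wild type) of each tested gene by list, with the median as a bar and calls in red; the dashed line is the median of all genes tested. The well-read ribosomal protein genes crowd around zero at a median of -0.05. The thinly read ones have a median of -0.08, and their 2 calls are above zero. The other translation machinery and the mitochondrial ribosomal protein genes have medians of -0.29 and -0.23 and more calls below zero. The limit of 25 RPM was applied to the members only, so the lists are not matched for level.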

How the data were processed

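RNA of 4 Cop1WT and 4 Cop1KO libraries was sequenced from 2 µg of total RNA, strand-specific per the labels. Reads were handled with Trimmomatic 0.39 and kallisto on build mm10, per the submitters' processing notes; no aligner or junction filter is given in the sources used here. Each deposited value is a junction signal: reads plus 1, divided by library total and 60 nt, with 0 reads at a floor of 0.854. Whole reads were recovered for 100% of values above the floor (within 0.001 read) and scaled to RPM. A fragment spanning several junctions counts at each.

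Gene sums over junctions without a dropped value, at 1 RPM or more on average, were tested as log2(RPM + 1) in limma 3.58.1 (trend, robust), and junctions at 5 RPM or more as log2(RPM + 0.5), also by diffSplice; Benjamini-Hochberg over all features, threshold 0.05. Fold changes on this scale understate those of low genes. A run on simulated counts over 10977 genes recovered 44% of 2-fold and 14% of 1.5-fold changes, over genes of all levels. Far fewer genes were changed in it than the 26.6% that passed here, which makes its adjusted threshold stricter. These shares therefore do not carry over to the test of the members. Members and lists were chosen with earlier results of these data known. Named were called members, Rps9, paralogs, the 3 highest and 3 lowest levels, the 12 dropped junctions with the largest prediction, calls of junction use, the top 3 of each other list and Cop1; others were named after their values were seen.

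Same-numbered libraries deviated together (correlations 0.34 to 0.61, against at most 0.20 for different numbers), so the numbers were taken to pair them and a block was fitted as an alternative. Other alternatives were scaling, pseudocount, filters, edgeR, DESeq2, junctions summed, and libraries left out. One alternative, leaving out junctions with at most 6 reads in one library and at least 500 in another, was chosen after seeing the data. Coordinates are from Gencode M21. Single values of 1 member and 1 other gene are not reported here, though both enter the counts.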

Additional observations from a re-analysis of the deposited data

Results flagged for a closer look

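Within groups of 4 libraries, 4 of 68 sets of gene values checked had a library far from the other 3 (past Dixon's 95% critical value), and chance alone flags about 1 in 20. Rplp1 was at 1259 RPM in Cop1KO library 4, against 1963 to 2038 RPM in the other knockout libraries, and both of its junctions were low there. Rps27l was at 3.05 RPM in Cop1WT library 1, against 45.2 to 53.7 RPM, where its junction E1.3-E3.1 held 1 read. Rpl23 was at 341 RPM in Cop1KO library 3, against 314 to 317 RPM, and Rpl22 at 52.6 RPM in Cop1KO library 1, against 45.5 to 46.7 RPM.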

How the results depend on the processing

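Values from the thinly read members (Rps9, Rps19, Rpl27, Rpl3l, Rpl9) rest on few reads, and those of members with an unstable junction (such as Rps27l) cannot be read for direction. The number of member genes called higher (2) was 5 under TMM scaling, 5 with DESeq2 size factors, 5 by edgeR and 6 by DESeq2, 1 over neighbouring blocks only, and 1 to 3 without any single library. Lower member genes (2) were 4 by the most-read junction alone, 4 without both libraries numbered 4, and 1 to 5 without any single library. Over all genes 21.2% passed by the most-read junction and 32.5% without both libraries numbered 4. With the replicate block 2 were higher and 3 lower, the added call being Rpl27, where 36.4% of all genes passed (26.6% without the block). The block changed no other call of a member gene named here.

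In the list of other translation genes the single rise became 3 rises under TMM scaling, 3 with DESeq2 size factors, 3 by edgeR and 3 by DESeq2. It became 0 with no filter, 0 as deposited, 0 over neighbouring blocks, 0 in limma without trend and robust moderation, and 0 to 1 without any single library; its 24 falls were 14 to 30 without any single library. Rises of mitochondrial ribosomal protein genes (0) were 1 under TMM scaling, 1 with DESeq2 size factors, 1 at a minimum of 10 RPM, 1 by edgeR, 1 by DESeq2, 1 with dropped values taken as at most 20 reads where 50 were predicted, 1 with the replicate block, 2 without both libraries numbered 4, 1 without unstable junctions and 0 to 1 without any single library. Their falls (10) were 4 under TMM scaling, 4 with DESeq2 size factors, 3 by edgeR, 6 by DESeq2 and 5 as deposited. They were 14 with the replicate block and 2 to 13 without any single library.

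Member junctions called higher (4) were 9 under TMM scaling, 9 with DESeq2 size factors and 2 at a minimum of 20 RPM, and 4 to 5 without any single library. Lower ones (15) were 7 under TMM scaling, 6 with DESeq2 size factors, 27 at a minimum of 20 RPM and 24 with the replicate block. They were 23 without both libraries numbered 4 and 8 to 31 without any single library. For both directions, the shares of all junctions that passed in these fits are not given. Calls of junction use (1 higher, 0 lower) were 0 higher at a minimum of 20 RPM, 2 higher and 1 lower with dropped values kept, and 3 lower with no filter. With dropped values taken as at most 20 reads where 50 were predicted, the difference in their share was -1.82 percentage points (exact permutation p = 0.0286).

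Summed as deposited, the sign turned for Rps9 (-4.63), Rps19 (-0.46), Rpl22 (1.26) and Rpl35a (1.4996). Over neighbouring blocks only it turned for Rpl12 (-0.42), Fau (-0.14) and Rpl41 (-0.42). Rps12 turned under TMM scaling (0.050), DESeq2 size factors (0.058), edgeR (0.056), DESeq2 (0.063) and without both libraries numbered 4 (0.017). Rpsa turned under TMM scaling (0.017), DESeq2 size factors (0.024), edgeR (0.019) and DESeq2 (0.026). Rps27l turned at a pseudocount of 5 (-0.0041), by its most-read junction (-0.040) and without both libraries numbered 4 (-0.013). None of these reversals in Rps12, Rpsa and Rps27l passed the test in limma, edgeR or DESeq2. Without any single library Rps27l ran from -0.89 to 0.86, Rplp1 from -0.049 to 0.19, Rps12 from -0.067 to 0.033, Rplp0 from -0.0079 to 0.097 and Rpl9 from -0.044 to 0.090. The cause was not tested, except that as-deposited sums differ only by the dropped junctions.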
